A study of Rattus norvegicus with 12 samples.

Results

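The genes described here are 40 cell division genes, 32 that work in mitosis and 8 that work in S phase, followed over rat sciatic nerve, dorsal root ganglia (DRG) and spinal cord after a myelin peptide was injected into the nerve. They were listed by name, not by their levels, and 33 of the 40 had a probe that could be named on the array, of 15159 genes named in all. The 26 named mitosis genes were measured beside 7 named S phase genes. Mki67, Top2a, Bub1b, Cenpe, Melk, Anln and Mcm5 matched no probe, and no level is given for them.

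The peptide, MBP84-104, is a stretch of myelin basic protein that T cells recognise, and 50 µg of it in 5 µL was injected into the left sciatic nerve of female rats, 8 weeks old by the labels. Wild-type rats were Sprague-Dawley and were sampled at 12 days by the labels, although the text of the study names an earlier time and describes heterozygous (rnu+/-) controls for the nude rats. The labels are followed here. Nude rats were athymic animals (rnu-/-, Hsd:RH-Foxn1rnu), which lack a thymus and most mature T cells, and were sampled at 7 days. From each rat type the injected left nerve, the right nerve (labelled as receiving PBS), the left and right L4/5 DRG, and the dorsal cord at the lumbar enlargement and above it (called thoracic here) were taken. Every one of the 12 conditions was a single array of RNA pooled from 3 rats, so no difference has a replicate check and no test across conditions was possible. By the labels the rat types also differed in strain and day and, for DRG and cord, in array slide, and these cannot be told apart. Both arrays of each comparison lay on the same slide. The contrasts described are injected against contralateral nerve, injected-side against contralateral DRG, and lumbar against thoracic cord, in wild-type and in nude rats, which makes 6 comparisons.

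A cell that divides first copies its DNA in S phase and then separates the copies in mitosis. The MCM helicase opens the DNA, the clamp Pcna holds the polymerase, and Rrm2, Tyms and Tk1 supply nucleotides. Mitosis is driven by Cdk1 with its cyclins, carried out by kinases, kinetochores and motor proteins on the spindle, and ended when the anaphase-promoting complex marks proteins for breakdown. In an adult nerve few cells divide, and after damage Schwann cells, macrophages and fibroblasts are known to do so. S phase genes are commonly switched on through E2F sites, and mitosis genes through CCAAT boxes and a short element called the CHR.

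The promoters, which the choice of genes did not use, were searched for these elements. Promoter windows of 300 bases, 250 before and 50 after the start, came from RefSeq (build GRCr8) and existed for 26 mitosis and 7 S phase genes. These are not the same genes as those with a named probe. They include the 7 genes without a probe and lack Ccna2, Aurkb, Tpx2, Ube2c, Racgap1, Pbk and Rrm2. The box CCAAT (either strand) was found in 20 of 26 mitosis promoters (76.9%), in 4 of 7 S phase promoters (57.1%) and in 39.6% of the 27457 promoters of all genes. The CHR, searched as TTTGAA or TTCGAA on either strand, stood in 16 of 26 mitosis promoters (61.5%), 1 of 7 S phase promoters (14.3%) and 21.0% of all. Both elements occurred together in 14 mitosis promoters (53.8%) and 9.15% of all. An E2F element, searched as TTTCCCGC, TTTCGCGC, TTTGCCGC or TTTGGCGC on either strand, was present in 1 of 26 mitosis promoters (3.85%), that of Cdk1, in 5 of 7 S phase promoters (71.4%) and in 2.37% of all. The CCAAT letters lie wholly inside none of the other searched strings, although neighbouring matches can share a letter at their ends. E2F matches on opposite strands can overlap, and 2 such matches were counted as 2. The 5 sequences below are shown because their genes stand for the different nerve patterns described further on. Capitals mark the searched elements, each sequence runs 5′ to 3′ on the gene's strand and begins 220 bases before the start, and bases inside the gene's own limits are left out.

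Ccnb2, chr8:79981718-79981878, minus strand: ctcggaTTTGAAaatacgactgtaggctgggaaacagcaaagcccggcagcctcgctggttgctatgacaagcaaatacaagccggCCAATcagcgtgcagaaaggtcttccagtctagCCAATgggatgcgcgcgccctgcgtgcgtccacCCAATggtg
Cdk1, chr20:19265073-19265251, plus strand: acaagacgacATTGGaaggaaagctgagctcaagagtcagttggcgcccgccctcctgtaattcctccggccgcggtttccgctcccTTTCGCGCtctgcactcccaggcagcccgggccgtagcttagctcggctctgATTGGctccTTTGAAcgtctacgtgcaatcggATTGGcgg
Cdc20, chr5:137255800-137256019, minus strand: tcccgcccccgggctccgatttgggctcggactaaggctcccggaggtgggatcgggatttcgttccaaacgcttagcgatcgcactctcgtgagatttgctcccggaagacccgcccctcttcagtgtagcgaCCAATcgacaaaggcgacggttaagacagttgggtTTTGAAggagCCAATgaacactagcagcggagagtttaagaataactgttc
Mcm6, chr13:42404353-42404572, minus strand: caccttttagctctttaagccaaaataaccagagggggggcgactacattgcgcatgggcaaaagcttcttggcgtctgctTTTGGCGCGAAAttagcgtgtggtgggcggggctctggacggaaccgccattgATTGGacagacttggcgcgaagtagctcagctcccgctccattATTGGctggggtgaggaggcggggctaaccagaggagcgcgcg
Mcm3, chr9:30733747-30733966, minus strand: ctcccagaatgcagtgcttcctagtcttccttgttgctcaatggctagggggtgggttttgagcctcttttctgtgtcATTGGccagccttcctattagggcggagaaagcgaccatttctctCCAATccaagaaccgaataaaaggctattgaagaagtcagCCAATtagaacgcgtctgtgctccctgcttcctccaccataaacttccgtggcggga

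Ccnb2, which encodes cyclin B2, held 3 CCAAT boxes beginning 134, 101 and 68 bases before the start, with TTTGAA 214 bases before it and again at 43 bases, inside the gene's limits. In Cdk1 the box lay on the other strand 210, 81 and 49 bases before the start, with TTTGAA at 72 bases and TTTCGCGC at 133 bases, and another TTTGAA at 16 bases was inside the gene's limits. Cdc20 had CCAAT at 86 and 41 bases and TTTGAA at 51 bases before the start. Mcm6 carried 2 overlapping E2F matches beginning 139 and 135 bases before the start and no CHR. The E2F matches of Mcm3 began 6 bases before and 13 bases after the start and are not printed. These are matches of letters and no binding was measured.

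All levels below are log2 signals relative to the median probe of the same array, so a level compares 1 gene between arrays and never 2 genes. A gene was compared where either of the 2 arrays held it well above background. A side that was not well above background was set no lower than the array's floor (the dimmest signal well above background), which makes the ratio a lower bound. Where such a ratio pointed away from the side well above background, the gene was left out. A gene well above background on 1 side only could thus count only as higher there, among members and all genes alike. Between repeat spots of a probe on an array the SD was 0.118 to 0.148 (log2), and a ratio between 2 arrays had a spot spread of 0.177 to 0.199. That spread is technical and holds nothing of the variation between rats. Of the 33 named members, 16 were well above background on all 12 arrays, 12 on some, and 5 (Aurkb, Cdca8, Hmmr, Nek2 and Kif2c) on none. The array of the injected nude nerve was the dimmest, with a median signal of 15.4 against 49.0 for the contralateral nude nerve, 36.1 and 33.1 for the wild-type nerve pair, and 19.5 to 74.9 for the other arrays. The labelled tissues matched their markers: Scn10a, a sodium channel of pain-sensing neurons, was well above background on the 4 DRG arrays and on no other, and Mog, of oligodendrocytes, lay at 6.04 to 6.69 in cord and at -0.98 or lower elsewhere.

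**Figure D1:**
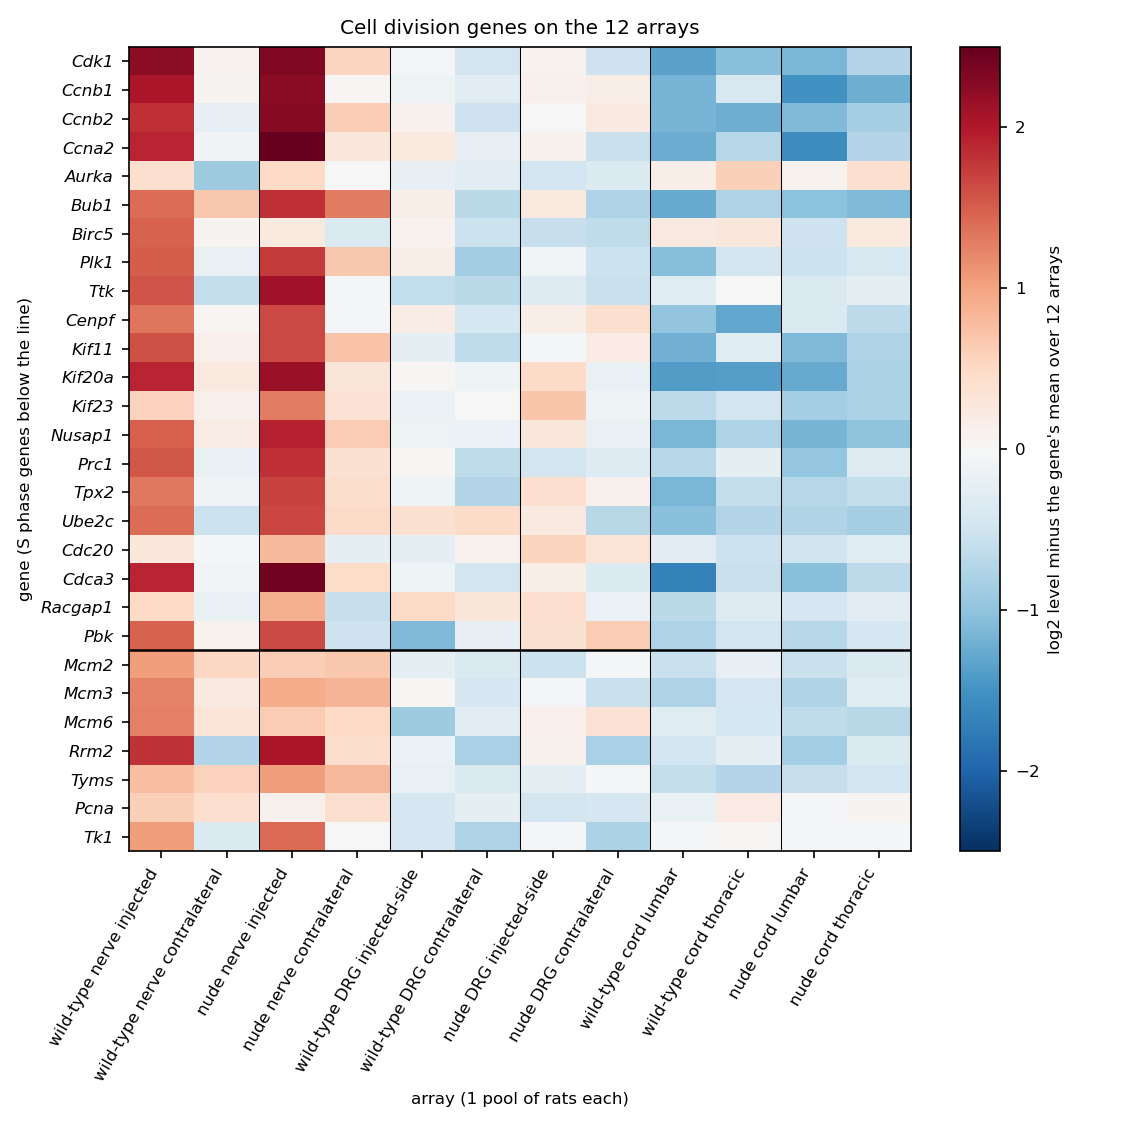
Heat map of the 28 members well above background on at least 1 array (rows, S phase genes below the line) on the 12 arrays (columns); colour is the log2 level minus the gene's own mean over the 12 arrays, with dim values raised to the array's floor. The injected nerves of both rat types are the reddest columns for most mitosis genes and Rrm2. The 4 cord columns are the bluest for many mitosis genes, but Aurka, Tk1 and Pcna are not lowest in cord. The floor was -2.61 to -1.95 on the cord arrays and -0.89 in contralateral nude DRG, so genes too dim on both are drawn bluer in cord.

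In the sciatic nerve, mitosis genes were higher on the injected side in both rat types. All 28 members measured in the wild-type nerve were higher there than in the contralateral nerve, 20 of them at least 2-fold. Of the 10213 genes measured, 4.68% were higher and 4.08% lower by that much. In the nude nerve 25 of 27 measured members were higher, 18 of them at least 2-fold, where 7.52% of 9456 genes were higher and 13.5% lower by 2-fold or more. No member was 2-fold lower in either nerve. For 4 of the 28 members in wild-type and 1 of the 27 in nude nerve, only the injected side was well above background. The direction of those members was fixed by the filter. The median mitosis gene was higher by 1.48 (log2, 2.79-fold, n = 21 genes) in wild-type and by 1.45 (2.73-fold, n = 21) in nude nerve, where the median of all genes was -0.05 and -0.38. The same 14 of 21 mitosis genes were at least 2-fold higher in both rat types, as were 189 of 9399 genes overall (2.01%). In bulk tissue, more dividing cells and more RNA of these genes per cell cannot be told apart.

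The nude ratios rest on the centring of an array that was dim throughout. Before centring, Cdk1 gave signals of 377 (injected) and 355 (contralateral) in nude nerve, and of 848 and 174 in the wild-type pair. Background correction by normexp with an offset, which pulls dim signals together, reduced the mitosis median to 0.71 in wild-type and 0.41 in nude nerve, and left 3 and 0 mitosis genes at 2-fold or more. The median of all genes then stood at 0.00 and -0.87, so the mitosis genes lay above it in both nerves by each way of processing tried.

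**Figure D2:**
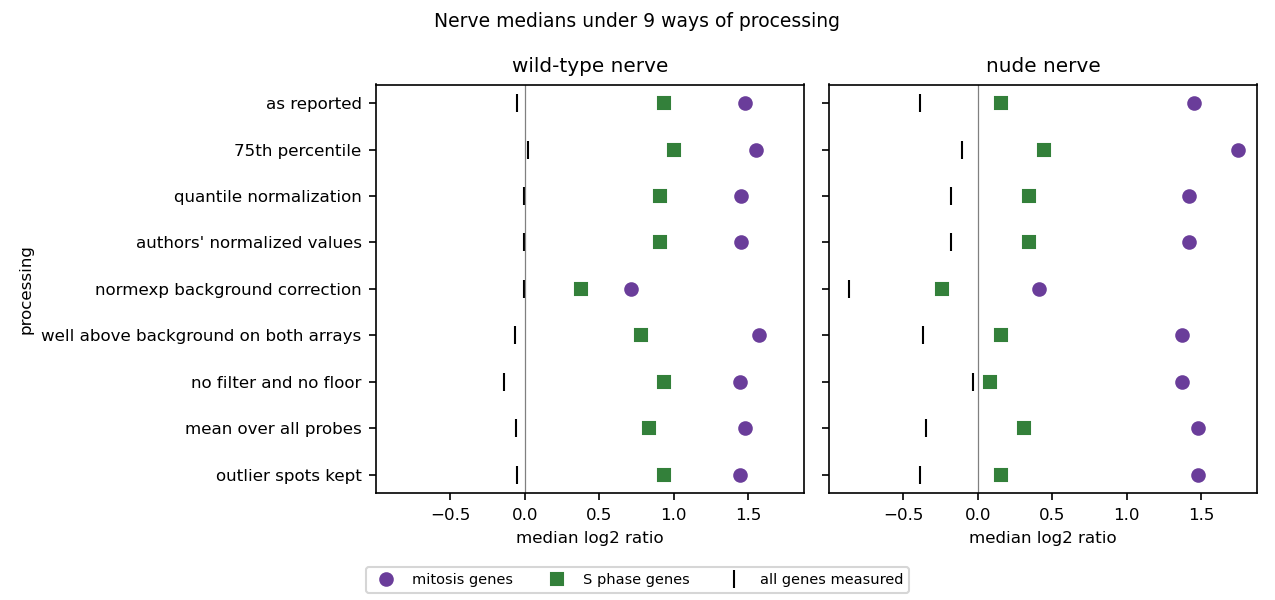
Median log2 ratio (x axis) of the mitosis genes (circles), the S phase genes (squares) and all genes measured (ticks) in the wild-type (left) and nude (right) nerve under 9 ways of processing (rows). The mitosis medians stay to the right of the all-gene ticks in every row and fall closest to them in the wild-type nerve under normexp, at 0.71.

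Cdk1, the kinase that starts mitosis, was read by 10 spots on each array. Its level was 4.55 in the injected and 2.40 in the contralateral wild-type nerve, 4.62 and 2.85 in the nude nerves, 1.79 to 2.41 in the DRG and 0.97 to 1.58 in the cord. Both injected nerves stood far above the other 10 arrays, and the difference was 2.16 (4.46-fold) in wild-type and 1.76 (3.40-fold) in nude rats. Ccna2, cyclin A2 of S phase and early mitosis, lay at 2.37 and 0.38 in the wild-type and at 3.01 and 0.75 in the nude pair, 3.96-fold and 4.78-fold higher. For Ccnb1, cyclin B1, the levels were 1.53 and -0.45 in wild-type and 1.73 and -0.47 in nude nerve. Ccnb2 was at least 4.07-fold higher in the wild-type nerve, where the contralateral side was not well above background, and 3.15-fold higher in the nude nerve. So all 4 genes of the Cdk1 and cyclin group were at least 3-fold higher in both rat types.

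Among the mitotic kinases, Plk1, which acts at centrosomes and kinetochores, was at 1.74 and 0.05 in the wild-type and 1.97 and 0.90 in the nude nerves, 3.24-fold and 2.10-fold higher. Aurka, the centrosomal Aurora kinase, was 1.47 against 0.16 in wild-type and 1.55 against 1.04 in nude nerve. The 2 injected nerves were thus level for Aurka, and the smaller nude ratio of 0.51 came with a higher contralateral level. Pbk was at least 2.62-fold higher in wild-type and at least 4.52-fold higher in nude nerve, and only 3 of 12 arrays held it well above background. Aurkb and Nek2 were too dim on every array.

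Of the kinetochore and spindle checkpoint genes, Ttk, the checkpoint kinase Mps1, was at 1.23 and -0.92 in the wild-type and 1.78 and -0.39 in the nude pair, 4.44-fold and 4.47-fold higher. The kinetochore protein gene Cenpf was at least 2.44-fold higher in wild-type and 3.27-fold higher in nude nerve. A second, dimmer probe of Cenpf, well above background on 1 array, gave at least 0.44 (log2) in wild-type nerve. Bub1, another checkpoint kinase, differed from Ttk and Cenpf. It was at 1.86 and 1.13 in wild-type and 2.29 and 1.77 in nude nerve, 1.65-fold and 1.43-fold higher, and both contralateral nerves lay above every DRG and cord array (-0.80 to 0.72). Birc5, the survivin gene of the chromosomal passenger complex, was at 1.52 and 0.12 in wild-type but at 0.30 and -0.32 in nude nerve. Among members well above background in both injected nerves it had the largest gap, 1.22 lower (log2) in nude rats. Its 2 spots on the injected nude array had an SD of 0.64. Mcm6 had only a bound for this gap, -0.63 or lower, so its gap may be larger.

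For the spindle proteins, Kif11, the motor that pushes spindle poles apart, was 2.79-fold higher in wild-type and 1.93-fold in nude nerve. Nusap1 and Tpx2, which bind spindle microtubules, were 2.49-fold and 2.65-fold higher in wild-type and 2.44-fold and 2.37-fold in nude nerve. In the cytokinesis group, Kif20a stood at 2.09 and 0.43 in wild-type and 2.34 and 0.48 in nude nerve, 3.16-fold and 3.64-fold higher, and Prc1, which bundles midzone microtubules, 3.30-fold and 2.73-fold. Racgap1 was 1.59-fold higher in wild-type and 2.79-fold in nude nerve, and Kif23, its partner in the centralspindlin complex, 1.35-fold and 1.88-fold. Both partners therefore had the larger ratio in the nude nerve.

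All 3 genes of mitotic protein breakdown measured were higher in the injected nerve of both rat types. Ube2c, the ubiquitin-conjugating enzyme of the anaphase-promoting complex, was 3.84-fold higher in wild-type and 2.27-fold in nude nerve. Cdca3 was at 3.33 and 1.36 in wild-type and 3.84 and 1.90 in nude nerve, near 4-fold in both (3.92-fold and 3.85-fold). Cdc20, the activator of the complex, was at 1.998 and 1.704 in wild-type but 2.536 and 1.498 in nude nerve, a ratio of 1.23-fold against 2.05-fold. It had the smallest ratio of the mitosis genes in the wild-type nerve, and its printed promoter holds both CCAAT and the CHR, as does that of Cdk1.

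**Figure D3:**
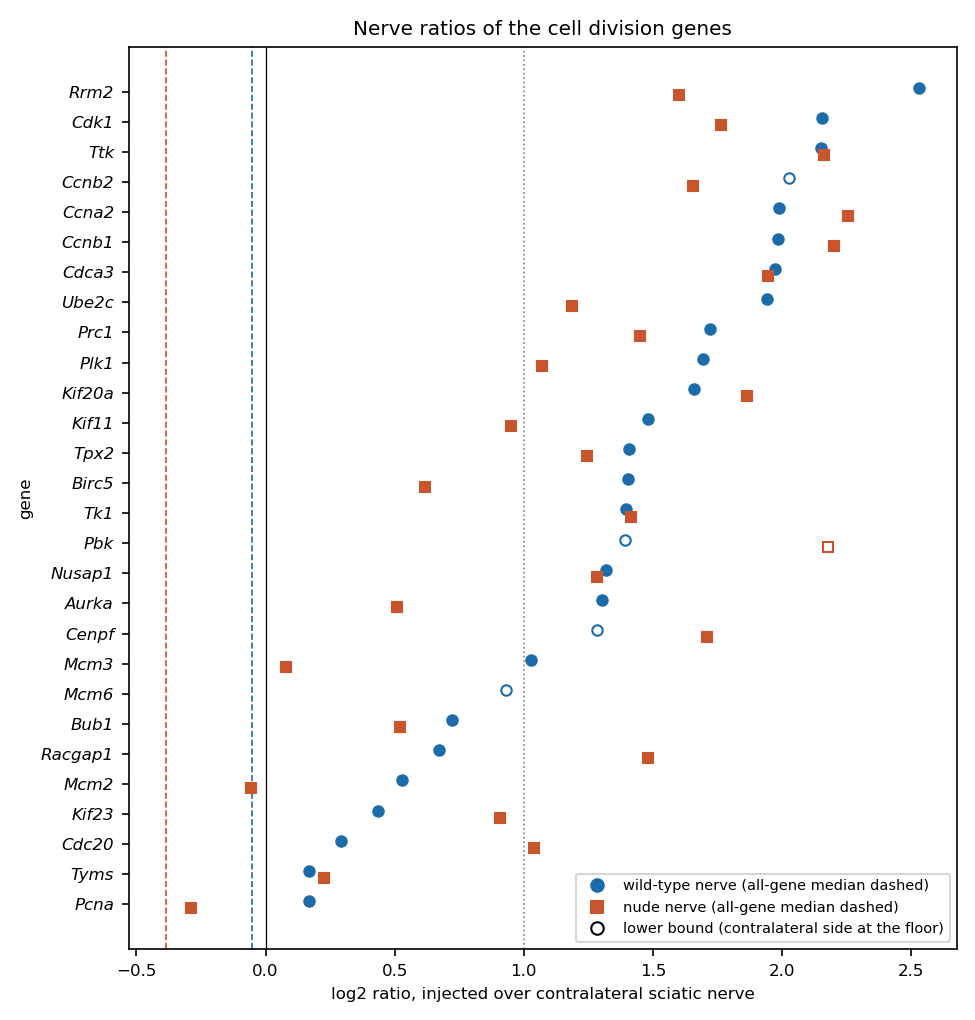
Log2 ratio of injected over contralateral nerve (x axis) for each member (rows, ordered by the wild-type ratio) in wild-type (blue circles) and nude rats (orange squares); open symbols are lower bounds, dashed lines are all-gene medians and the dotted line is 2-fold. Rrm2 has the highest wild-type ratio, at 2.53, and Mcm3, Mcm2 and Pcna are the genes whose nude ratio lies near or below 0.

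The S phase genes had unequal nerve ratios. Rrm2, the regulated subunit of ribonucleotide reductase, was at 4.66 and 2.13 in the wild-type and 4.91 and 3.30 in the nude nerves, 5.78-fold and 3.04-fold higher, with the highest ratio of all members in wild-type rats. A second, dimmer probe of Rrm2, well above background on 2 arrays, gave at least 2.775 (log2) in nude nerve and no ratio in wild-type nerve. Tk1, thymidine kinase, was 2.63-fold and 2.67-fold higher, while Tyms, thymidylate synthase, was only 1.12-fold and 1.17-fold higher. Mcm3 was at 3.42 and 2.40 in wild-type and at 3.11 and 3.03 in nude nerve, 2.04-fold and 1.06-fold. Mcm2 was at 1.82 and 1.29 in wild-type and at 1.39 and 1.45 in nude nerve. Mcm6 was at least 1.91-fold higher in the wild-type nerve, and in the nude nerve the injected side was not well above background and no ratio could be given.

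Whether the MCM ratios differ between rat types was not testable with single arrays, and over all genes the wild-type ratio was the higher for 7039 of 9399. A second probe of Mcm3 gave 0.65 in wild-type and 0.71 in nude nerve, so the difference seen for Mcm3 depends on the probe. Pcna was at 4.82 and 4.65 in wild-type and 4.34 and 4.63 in nude nerve, differences of 0.17 and -0.29, the first of which is under the spot spread. The S phase median was 0.93 (1.91-fold, n = 7 genes) in wild-type and 0.15 (n = 6) in nude nerve, and the latter ran from -0.24 to 0.45 over the ways of processing. The all-gene median in nude nerve was -0.38 as reported, and ran from -0.87 under normexp to -0.03 without filter and floor. The nude S phase median lay above the all-gene median by each way of processing, and least so without filter and floor.

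Side by side, the injected nude nerve had the higher level for 23 of 28 members and the injected wild-type nerve for 5 (Birc5, Mcm2, Mcm3, Mcm6 and Pcna), where 3402 of 9312 genes were higher in the nude nerve. With normexp the count was 7. Contralateral nude nerve was higher than contralateral wild-type nerve for 21 of 26 members, which was near the share of all genes (7608 of 10224).

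Markers of other cells moved in the same nerves. Summed macrophage markers (14 of 14 well above background) were 3972 times the array median in the injected and 2339.5 times in the contralateral wild-type nerve, and 2971 and 2649 times in the nude nerve. Such sums weigh the brightest genes most. By gene, the median log2 ratio of these markers was 0.627 in wild-type (14 higher, 0 lower) and 0.115 in nude nerve (9 higher, 5 lower). Summed Schwann cell markers (9 of 9) were 2151 and 3629 times in wild-type, 1969 and 3837 times in nude rats. T cell markers were well above background for 9 and 7 of 12 genes in wild-type and 3 and 7 of 12 in nude nerve, with Cd3e on none of the 12 arrays and Cd3d on all 12. The count of 3 was on the dimmest array. Summed over the 12 genes they were 18.4 and 13.3 in wild-type and 13.8 and 10.3 in nude nerve. Of 9 measured in wild-type nerve 8 were higher and 1 lower, and of 5 in nude nerve 2 were higher and 3 lower. Red blood cell markers summed to 6973 against 1689 in wild-type and 10734 against 1179.5 in nude nerve, and skeletal muscle markers to 176 against 39.9 in wild-type and 16.4 against 23.5 in nude nerve. The part of these cells in the values of the cell division genes was not tested.

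In the DRG, members were modestly higher on the injected side in both rat types. The mitosis median was 0.39 (1.31-fold, n = 20) in wild-type and 0.49 (1.40-fold, n = 16) in nude rats, and the S phase median 0.27 (n = 6) and 0.23 (n = 6), where all genes had 0.01 and 0.02. One member, Plk1 in wild-type rats, was at least 2-fold higher, beside 0.489% of 10831 genes higher and 0.517% lower, and none in nude rats, beside 0.682% of 9537 genes higher and 0.388% lower. Counted by direction, 14 of 22 members measured in both were higher in both rat types, against 24.6% of all genes. Only the injected side was well above background for 4 of 26 members measured in wild-type and 5 of 22 in nude DRG. The direction of those members was fixed by the filter.

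Bub1 was at 0.61 and -0.20 in wild-type and 0.72 and -0.28 in nude DRG, 1.76-fold and 1.99-fold. Rrm2 was at 2.71 and 2.05 in wild-type and 2.98 and 2.05 in nude DRG, 1.58-fold and 1.90-fold. Plk1 was at 0.36 and -0.64 in wild-type DRG, a difference of 1.003, and was at least 0.47 higher (log2) in nude DRG. Cdk1 was 0.45 higher in wild-type and 0.62 in nude DRG. Each of these exceeded the spot spread, which is pooled over probes, while Ccnb1 did not, with 0.15 and -0.06. For Plk1 the 2 spots of contralateral nude DRG, not well above background, had an SD of 0.55, more than its nude difference. Tk1 was 0.35 and 0.74 higher, and Mcm2 went from 0.15 in wild-type to -0.50 in nude rats.

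The nude pair of DRG also differed in other tissue. Skeletal muscle markers were at least 2-fold higher on the injected side for 8 of 9 measured (summed 50.6 against 12.7), and neutrophil markers for 4 of 5 (summed 352 against 83.7), with S100a8 at 6.23 and 4.21. In wild-type DRG no gene of either list was 2-fold higher (summed 32.8 against 30.1 and 111 against 96.0). Their part in the nude ratios was not tested. Under normexp the medians were 0.08 in wild-type and 0.18 in nude rats, beside 0.17 and 0.08 for all genes, so the wild-type mitosis genes then lay below the median gene. The wild-type median was also reduced to 0.16 when genes had to be well above background on both arrays, and to 0.18 when all probes of a gene were averaged.

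**Figure D4:**
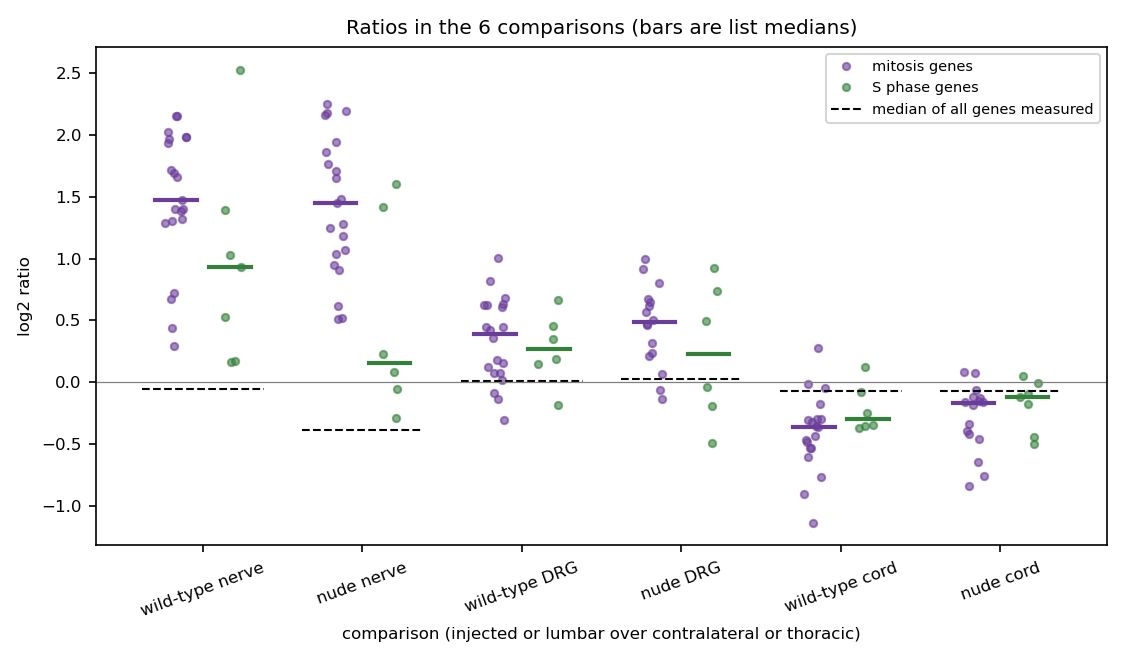
Log2 ratios (y axis) of the measured mitosis genes (purple) and S phase genes (green) in the 6 comparisons (x axis); each dot is a gene, solid bars are list medians and dashed lines the median of all genes. The dots lie highest in the nerve, with mitosis medians of 1.48 and 1.45, a little above the dashed lines in the DRG and a little below them in the cord.

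In the cord, members were slightly lower at the lumbar than at the thoracic level. The mitosis median was -0.36 (n = 19) in wild-type and -0.17 (n = 16) in nude rats, the S phase median -0.30 (n = 6) and -0.12 (n = 7), and the all-gene median -0.07 in both. No member was 2-fold higher, beside 0.913% of 11065 genes in wild-type and 0.776% of 10689 in nude cord. Cdca3 alone was 2-fold lower, at -0.26 and 0.88 in wild-type cord (2.20-fold lower), beside 0.831% of genes lower in wild-type and 0.589% in nude cord. By direction, 18 of 22 members were lower in both rat types, against 45.9% of all genes. Ccnb1 was 0.77 lower in wild-type, and Ccna2 0.54 lower in wild-type and 0.84 in nude cord. These are 2 levels of the same cord and not an injected and a control side, and Schwann cell markers also differed between them, with 5 of 9 at least 2-fold higher at the lumbar level in each rat type. Neutrophil markers were 2-fold lower for 4 of 7 at the lumbar level in wild-type cord, and skeletal muscle markers 2-fold higher for 6 of 9 in nude cord. Lists of glia were lower at the lumbar level, with medians in wild-type and nude cord of -0.37 and -0.50 for oligodendrocyte markers (6 of 8 and 8 of 8 lower), -0.31 and -0.33 for oligodendrocyte precursor markers (3 of 5 and 5 of 5) and -0.21 and -0.34 for astrocyte markers (3 of 6 and 6 of 6). The part of these cells in the lower member levels was not tested.

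Across tissues, the cord was low for many mitosis genes but not for most S phase genes. With dim values raised to each array's floor, all 4 cord arrays lay below the 8 others in 12 of 28 members. This order held for 11 of 21 mitosis genes, 1 of 7 S phase genes and 19.1% of 12071 genes. The members with it were Cdk1, Ccnb1, Ccnb2, Ccna2, Bub1, Kif20a, Kif23, Nusap1, Ube2c, Cdc20, Cdca3 and Tyms. For Ube2c and Ccnb2 the order depended on the floor of contralateral nude DRG (-0.89). Before flooring, Ube2c was at -1.55 there, below its cord levels of -1.25 to -0.92. Ccnb2 was at -2.37 there and at -2.35 in wild-type thoracic cord. All 4 nerve arrays lay above the others for 4 members, Bub1, Mcm2, Mcm3 and Tyms, against 18.0% of genes, so that order was not more frequent among the 28 members together. By list, it held for 3 of 7 S phase genes and 1 of 21 mitosis genes. Aurka ran the other way from most, with 1.15 to 1.66 in cord, 0.59 to 0.85 in DRG and 0.16 to 1.55 in nerve, and Pcna had its 4 DRG arrays (3.77 to 3.98) below the other 8.

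Over the 12 arrays, which share tissue and rat type as sources of variation, the pattern was common to most members. Among the 10 mitosis genes well above background throughout, pairs had a median Pearson r of 0.80, among 6 S phase genes 0.71, and over 7950 such genes 0.13. Most like Cdk1 were Cdca3 (r = 0.98), Ccna2 (0.98), Kif20a (0.98) and Nusap1 (0.97), and least like it Aurka (0.16) and Pcna (0.46).

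Related genes were counted in the same way. Beside them, 4.68% of all genes in wild-type and 7.52% in nude nerve were at least 2-fold higher, with all-gene medians of -0.05 and -0.38. Of other mitosis genes, 13 of 32 measured were at least 2-fold higher in wild-type and 16 of 28 in nude nerve, with medians of 0.82 and 1.10, and 3 were lower in each nerve, 1 of them 2-fold in nude nerve. Cks2, a partner of Cdk1, was higher by 2.01 and 1.77, Spc25 and Nuf2 of the kinetochore by 1.94 and 1.67 and by 1.42 and 1.07, Aspm of the spindle poles by 1.72 and 1.18, and Ckap2 by 1.39 and 0.84. Other replication genes numbered 4 of 24 in wild-type and 0 of 21 in nude nerve, with medians of 0.47 and -0.02. Rrm1, the large subunit of ribonucleotide reductase, was higher by 2.47 and 0.84, the helicase components Gins1 and Cdc45 by 1.27 and 0.78 and by 1.04 and 0.53, and the clamp loader gene Rfc3 by 0.79 and 0.16. These genes were picked by their wild-type ratio, so their smaller nude ratios are no independent result.

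Genes of entry into the cycle stood apart. Of 16 measured in wild-type nerve 2 were 2-fold higher, and of 15 in nude nerve 1, beside 4.68% and 7.52% of all genes. The median was 0.12 in wild-type and -0.24 in nude nerve, where all genes had -0.05 and -0.38. Ccne1, cyclin E1, was higher by 1.79 in wild-type and 1.15 in nude nerve, while E2f1 was at -0.46 and -0.12, Cdk6 at -0.62 and, with the injected nude side at the floor, -0.95 or lower, and Lin54 at -0.46 and -0.75, and E2f3 was higher by 0.64 and 0.59. Among cell cycle inhibitors 1 of 17 was 2-fold higher and 1 of 17 lower in wild-type nerve (median 0.05), beside the 4.68% and 4.08% of all genes, and 1 of 17 higher and 3 of 17 lower in nude nerve (median -0.45), beside 7.52% and 13.5%. Cdkn2b was higher by 1.18 and 0.40, Cdkn2a by 0.82 and 0.84 and Gadd45b by 0.88 and 0.78, whereas Cdkn1b, which encodes p27, was lower by values of -0.74 and -1.12 and Tob1 by -1.04 and -1.98.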

How the data were processed

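Total RNA labelled with Cy3 was hybridised to single-colour Agilent rat arrays, 1 array for each of 12 conditions on 2 slides (8 and 4 arrays). The authors' scans were read with Feature Extraction, version 10.5 in the processing notes and 10.7.3.1 per the file headers, which gave the deposited intensity of each spot after local background subtraction. Flags set by that software are deposited as other values of 0 or 1 for outliers, saturation and signal well above background. The authors also deposited normalized log2 values, used here only as an alternative. Depth does not apply to arrays, and 1 array per condition limits the precision.

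Outlier spots were left out, log2 intensities of a probe's spots averaged and each array's median subtracted (Python 3.11.15, pandas 2.3.3). RefSeq accessions named 18006 of 30367 probes through a newer annotation (GRCr8) than that of the array, and the brightest probe stood for a gene, with 9 members having more than 1. A probe was well above background where a share above 0.5 of its spots was. Genes were counted at 2-fold. The ratio and the 2-fold count were tested on simulated arrays. Both simulated arrays had the same genes well above background, so the handling of genes dim on 1 side was not tested. The alternatives were another percentile, quantile normalization, normexp (offset 50), the authors' values, both or neither array above background, all probes, outliers kept, and 3-fold. Neither the methods' t-test nor any other was possible. The members and the lists were chosen with earlier results of these data known. Of each related list, up to 5 genes with the largest ratio in wild-type nerve, well above background on both arrays, are named, and a result that would fall under this rule is not reported here. Values of the other marker lists are in the closing section.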

Additional observations from a re-analysis of the deposited data

Results flagged for a closer look

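Cdc20, the activator of the anaphase-promoting complex, pointed opposite ways in the DRG. Its injected side over contralateral log2 ratio was -0.31 in wild-type DRG but 0.21 in nude DRG. It was picked out because both values exceed the spread between repeat spots and have opposite signs. The difference was not tested, since each side is 1 array.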

How the results depend on the processing

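No list median past 2-fold changed sign. The S phase median in nude nerve changed from 0.15 to -0.24 under normexp. Of the list values under the alternatives, 232 moved little and 30 moved. Of the values of single genes checked, 245 moved little and 71 moved, 18 of them under the 75th percentile. Normexp moved the most, among them all 40 single-gene values checked under it. It left 3 mitosis genes at 2-fold in wild-type and 0 in nude nerve, 0 in wild-type DRG, and 1 S phase gene in wild-type and 0 in nude nerve. Its mitosis medians were 0.71 and 0.41 in the wild-type and nude nerve, 0.079 and 0.18 in the DRG and -0.11 in wild-type cord, its S phase medians 0.38 in wild-type and -0.24 in nude nerve, and 7 of 28 members, in place of 23, were higher in the injected nude nerve than in the wild-type one. Centring on the 75th percentile gave a mitosis median of 1.74 and an S phase median of 0.45 in nude nerve and 1 mitosis gene at 2-fold in nude DRG. Quantile normalization and the authors' values gave 0.35 for S phase in nude nerve and 1 mitosis gene in nude DRG. With all probes averaged, wild-type DRG had 2 mitosis genes at 2-fold and a median of 0.18, and with both arrays above background a median of 0.16. Without filter and floor, 5 mitosis genes in nude DRG, 3 in wild-type DRG and 1 in nude cord were 2-fold higher, and 15 of 33 members, in place of 6 of 19, were higher in the contralateral nude than wild-type DRG. At 3-fold, 11 members remained above the threshold in wild-type nerve, 10 in nude nerve and 0 in wild-type DRG. No paired analysis was possible because each condition has 1 array, and leaving out an array or a t-test could not be run. Dim signal limits the nude nerve most, with 52.8% of probes well above background on the injected side.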

Other observations

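Marker lists not described above had these median log2 ratios in wild-type and nude nerve. Endothelial markers had 0.30 and 0.36, fibroblast markers 0.56 and 0.27, adipocyte markers -1.62 and -1.84, neutrophil markers 0.77 and 2.23, neuron markers -0.84 and -0.67, sensory neuron markers -0.92 and -1.51, astrocyte markers -0.28 and -0.23, oligodendrocyte markers -0.37 and -0.40, and oligodendrocyte precursor markers -0.08 and -0.01.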
